A study of Homo sapiens with 8 samples.

Results

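The 9 genes described here encode membrane transporters that carry drugs, bile constituents and conjugated metabolites across the liver cell membrane. They were chosen by name and function as 6 efflux pumps of the ABC family (ABCB1, ABCC1, ABCC2, ABCC3, ABCC4 and ABCG2) and 3 uptake carriers of the SLC superfamily (SLCO1B3, SLCO2B1 and SLC22A7). They are 9 of the 60230 genes in the count table, and all 9 were among the 13400 genes with enough reads to test. RNA was sequenced from HepG2 cells, a human liver cancer line, made to overexpress the drug-metabolizing enzyme CYP2C19 and kept under blasticidin selection, and this holds for the controls as well. The 4 groups received the vehicle DMSO, compound 4 (labelled metylcresol), compound 5 (tetrabut) or compound 6 (cyclohexil), with 2 libraries per group, labelled day 1 and day 2. Each compound was given at its own half-inhibitory concentration and for the same time. The compounds were thus compared at matched times but at different concentrations, which the paper describes as rather comparable. The compounds are bisphenols. Compounds 4 and 6 share a methylene bridge and a methyl group on each ring and differ in carrying tert-butyl or cyclohexyl beside the hydroxyl group, whereas compound 5 has an ethylidene bridge and a pair of tert-butyl groups on each ring. The model is a tumour line, and the labels do not say that libraries of a group came from separate cultures, so the p-values measure the spread between these libraries, which may be technical.

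Hepatocytes take organic anions, cations and drugs from the blood through carriers on the basolateral membrane and export them or their conjugates again through ATP-driven pumps. Pumps on the canalicular membrane (ABCB1, ABCC2, ABCG2) discharge into bile, and pumps on the basolateral membrane (ABCC3, ABCC4, and ABCC1 where it is made) return conjugates to the blood. Several of these genes are known targets of the xenobiotic receptors PXR, CAR and AHR, of the bile acid receptor FXR and of the oxidative stress factor NRF2.

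Library totals ranged from 9791659 to 17814595 counts. CYP2C19 was read in every library, from 16.4 to 52.8 CPM (read counts scaled to a common library size with edgeR's TMM factors). All 9 hepatocyte markers were read. Their summed level was 50664 to 54654 CPM with DMSO, 34999 to 42425 CPM with compound 4, 43463 to 44734 CPM with compound 5 and 37678 to 43803 CPM with compound 6. Among markers of other cell types, CFTR, DCN, KDR, STAB2, PTPRC, CD163, MARCO and CD3E were at 0 in all libraries. In bulk RNA, fewer cells of a type and less RNA per cell cannot be told apart.

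Promoter sequence from RefSeq (GRCh38.p14) was at hand for 7 of the 9 genes. A few of these promoters are shown as they stand 5′ of the annotated start on the strand of the gene, for the pump that rose with all compounds (ABCC2), for the carrier that rose with compound 5 (SLCO1B3) and for the member whose promoter held the antioxidant response element core (ABCC4). Capitals mark matches to the motifs searched on both strands.
ABCC2, chr10:99782390-99782639, plus strand: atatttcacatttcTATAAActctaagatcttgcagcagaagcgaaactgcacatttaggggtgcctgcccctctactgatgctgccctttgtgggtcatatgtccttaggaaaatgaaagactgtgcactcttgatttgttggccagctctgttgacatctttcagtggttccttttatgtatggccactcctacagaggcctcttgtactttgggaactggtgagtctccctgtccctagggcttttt
SLCO1B3, chr12:20810455-20810701, plus strand: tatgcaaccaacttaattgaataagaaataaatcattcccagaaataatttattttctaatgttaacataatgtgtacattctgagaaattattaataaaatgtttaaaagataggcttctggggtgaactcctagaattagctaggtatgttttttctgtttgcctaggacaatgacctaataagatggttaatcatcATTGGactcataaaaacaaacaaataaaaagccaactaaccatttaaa
ABCC4, chr13:95301476-95301701, minus strand: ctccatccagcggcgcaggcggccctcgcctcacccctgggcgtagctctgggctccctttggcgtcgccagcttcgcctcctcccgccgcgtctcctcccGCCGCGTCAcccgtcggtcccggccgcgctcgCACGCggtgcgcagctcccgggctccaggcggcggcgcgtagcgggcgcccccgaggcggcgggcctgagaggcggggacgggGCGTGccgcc
The letters searched were TGACNNNGC (antioxidant response element core), GCGTG (AHR response element core), GGGCGG (GC box), TATAAA and CCAAT, and the DR4 and ER6 repeats of the nuclear receptor site by name. The antioxidant core occurs in 10.9% and the AHR core in 32.2% of 35116 promoters of the same length, DR4 in 0.0057%, ER6 in 0%, the GC box in 42.6%, TATAAA in 10.7% and CCAAT in 32.0%. Counted from the first base of the match to the end of the printed sequence, the antioxidant core of ABCC4 began 125 bases and its AHR cores 93 and 10 bases before that end. Counted in the same way, ABCC2 held TATAAA at 236 bases and SLCO1B3 held CCAAT, read on the opposite strand, at 48 bases. The ABCC2 window was 45.6% G and C, that of SLCO1B3 27.9% and that of ABCC4 80.1%. A match describes the letters only. DR4 and ER6 were searched with every letter of both repeats fixed, in a form found in 2 and 0 of the 35116 promoters. Variant repeats were not searched, so whether these promoters hold sites for nuclear receptors was not tested.

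Of the 9 transporters, ABCC2 was the most strongly read in every group. Per kilobase of the longest coding transcript, its level with DMSO was 99.0 ± 2.42 CPM (SD, n = 2), above ABCB1 at 22.7 ± 1.41, ABCC1 at 16.7 ± 2.72, SLCO2B1 at 12 ± 0.651, ABCC3 at 10.0 ± 1.46, ABCG2 at 8.22 ± 0.574 and ABCC4 at 6.39 ± 0.142 CPM per kilobase. SLC22A7 at 2.05 ± 0.627 and SLCO1B3 at 1.48 ± 0.615 CPM per kilobase came last, and the libraries of these last carriers overlapped. With the union of all exons as length, the DMSO order of the middle genes changed, with ABCG2 4th and SLCO2B1 6th. By its mean over the 8 libraries, not scaled to length, ABCC2 had 114 of the tested genes above it, whereas SLC22A7 had 11043 above it.

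**Figure D1:**
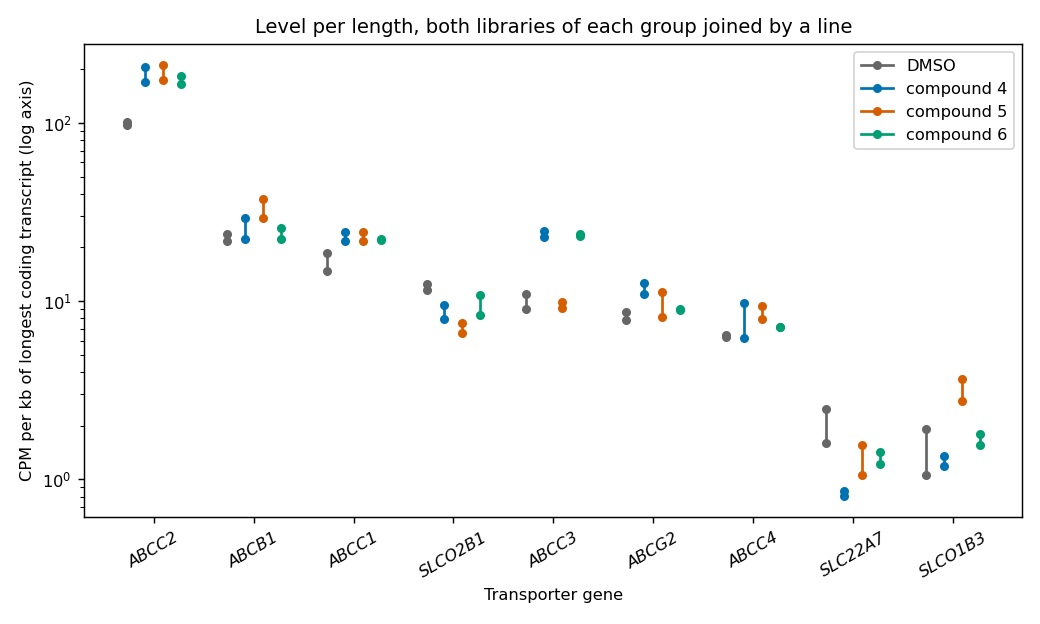
Level of the 9 transporters in each group in CPM per kilobase of the longest coding transcript, with points for libraries, lines joining the libraries of a group and the axis on a log scale. ABCC2 lies above all other transporters, and ABCC3 moves from 10.0 with DMSO to 23.7 with compound 4 and 23.5 with compound 6 but is at 9.49 with compound 5.

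Against DMSO, the estimate was above 0 for 6, 5 and 6 of the 6 efflux pumps and below 0 for 3, 2 and 2 of the 3 uptake carriers with compounds 4, 5 and 6, and few of these passed the threshold of an adjusted p under 0.05. With compound 4, 3 of 9 transporters passed (ABCC2 and ABCC3 higher, SLC22A7 lower), where 9.51% of all tested genes did. With compound 5, 3 of 9 passed (ABCC2 and SLCO1B3 higher, SLCO2B1 lower), where 8.3% of all tested genes did. With compound 6, 2 of 9 passed (ABCC2 and ABCC3, both higher), where 0.575% of all tested genes did. With the day as a block, 5 members passed with compound 4 (12.7% of all genes), adding ABCC1 and ABCG2. The median log2-fold change over the 6 pumps was 0.49, 0.45 and 0.30 with compounds 4, 5 and 6, and over the 3 carriers -0.46, -0.63 and -0.33, beside 0.01, 0.00 and 0.02 over all tested genes. The comparisons share their DMSO libraries. Both libraries of a compound lay outside both DMSO libraries for 6, 7 and 7 of the 9 transporters, beside 58.4%, 59.5% and 55.4% of all tested genes.

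**Figure D2:**
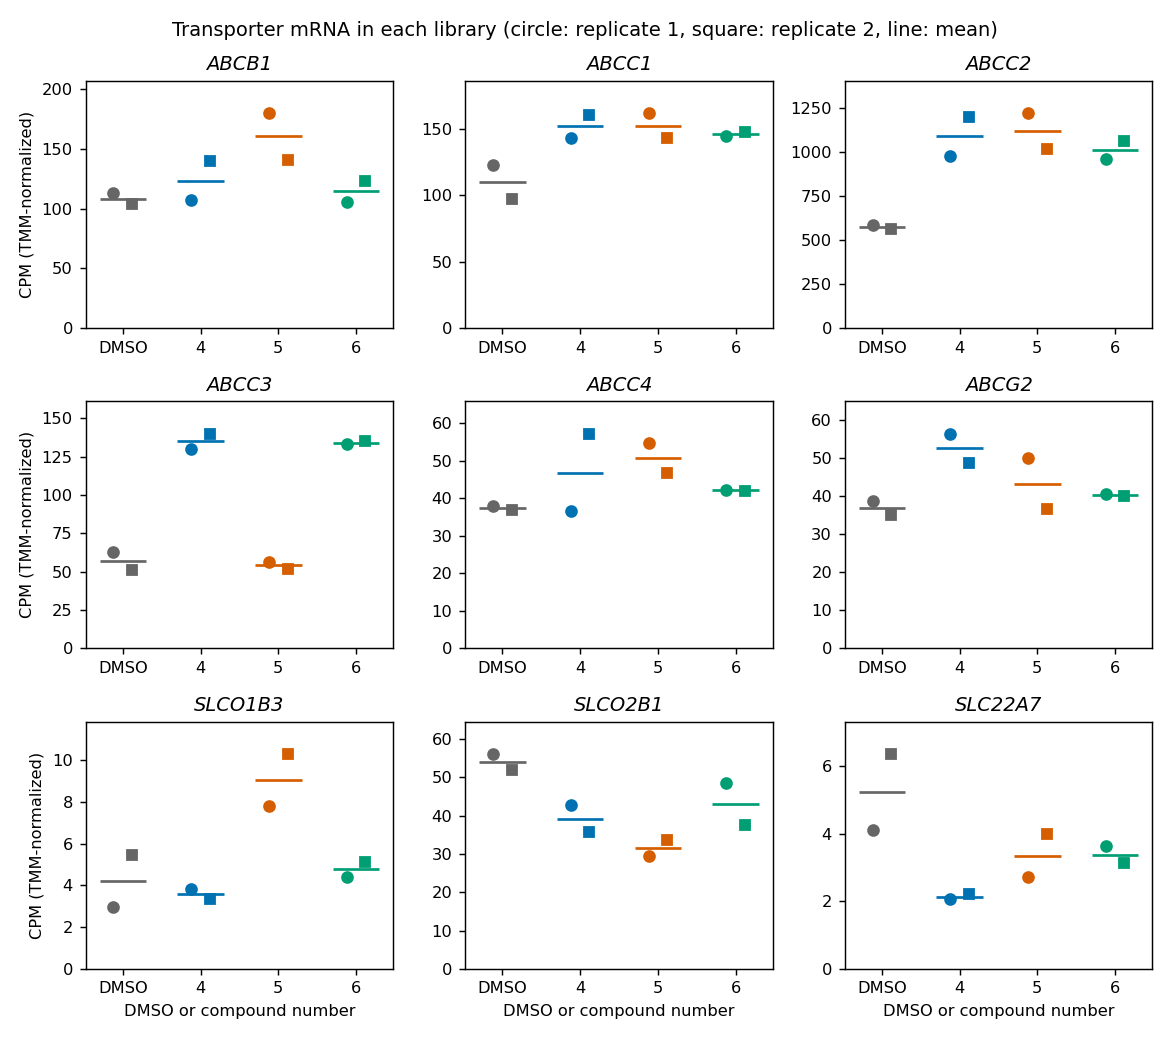
CPM of each transporter in the 8 libraries, with 1 panel per gene, a circle for replicate 1, a square for replicate 2 and a line at the group mean. ABCC2 lies at 565 to 584 CPM with DMSO and at 962 to 1220 CPM in the 6 treated libraries, and ABCC3 separates compounds 4 and 6 from DMSO and compound 5.

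ABCC2 (MRP2, chromosome 10, 99782640 to 99852594 on GRCh38), the canalicular pump for conjugated bilirubin and for glutathione and glucuronide conjugates, rose with all 3 compounds. Its level was 584 and 565 CPM with DMSO, 979 and 1197 with compound 4, 1220 and 1016 with compound 5 and 962 and 1062 with compound 6. Every treated library lay above both DMSO libraries. The log2-fold change was 0.92 (SE 0.13, 95% confidence interval 0.63 to 1.21) with compound 4 at an adjusted p of 0.0052 (edgeR quasi-likelihood test, Benjamini-Hochberg, as for all adjusted p-values given below). With compound 5 it was 0.96 (SE 0.13, interval 0.67 to 1.25, adjusted p = 0.0056), and with compound 6 it was 0.82 (SE 0.13, interval 0.53 to 1.11, adjusted p = 0.042). No difference in ABCC2 between compounds passed the threshold, and these differences were -0.04 (interval -0.33 to 0.25) for compound 4 minus 5, 0.10 (-0.18 to 0.39) for 4 minus 6 and -0.14 (-0.43 to 0.15) for 6 minus 5. The call with compound 4 was lost without DMSO replicate 2 (adjusted p = 0.077), and that with compound 5 without DMSO replicate 1 (0.057) or 2 (0.072). The call with compound 6 was lost without DMSO replicate 1 (0.14) or 2 (0.44) and without compound 6 replicate 1 (0.055) or 2 (0.32). Over all alternatives the adjusted p lay between 4.4e-13 and 0.077, 1.5e-14 and 0.072, and 6.7e-10 and 0.44 with compounds 4, 5 and 6. Within day 1 the log2 ratios to DMSO (with 0.5 CPM added) were 0.74, 1.06 and 0.72, and within day 2 they were 1.08, 0.85 and 0.91.

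ABCC3 (MRP3, chromosome 17, 50634777 to 50692252), a basolateral pump that moves glucuronide conjugates and bile acids back to the blood, rose with compounds 4 and 6. It was read at 63.0 and 51.2 CPM with DMSO, 130 and 140 with compound 4, 56.6 and 52.0 with compound 5 and 133 and 135 with compound 6. The libraries of compounds 4 and 6 lay above those of DMSO and compound 5, and compound 5 overlapped DMSO. The rise was 1.25 on the log2 scale with compound 4 (SE 0.12, interval 0.97 to 1.52, adjusted p = 0.0016) and 1.24 with compound 6 (SE 0.12, interval 0.96 to 1.51, adjusted p = 0.0068), in fold terms 2.37 and 2.36. With compound 5 the log2-fold change was -0.07 (interval -0.35 to 0.20, adjusted p = 0.72). By p-value ABCC3 was 4th of all tested genes with compound 6 and 16th with compound 4. The compound 4 call held in all 14 alternative analyses, at adjusted p up to 0.032, and the compound 6 call was lost without DMSO replicate 2 (0.12) or compound 6 replicate 2 (0.081), in a range of 1.4e-15 to 0.12. Within day 1 and day 2 the log2 ratios were 1.04 and 1.44 with compound 4 and 1.07 and 1.39 with compound 6.

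The compounds were compared directly for each transporter, in 27 gene-by-pair comparisons with p-values adjusted over all tested genes. ABCC3 was higher with compound 4 than with compound 5 by 1.32 (SE 0.12, interval 1.04 to 1.59, adjusted p = 0.0035), as 1 of 9 transporters past the threshold, where 0.313% of all tested genes were. It was higher with compound 6 than with compound 5 by 1.31 (SE 0.12, interval 1.03 to 1.58, adjusted p = 0.0039), again 1 of 9 transporters, where 1.03% of all tested genes were. This last call was lost without compound 6 replicate 1 (adjusted p = 0.080), in a range of 4.1e-17 to 0.080. Between compounds 4 and 6, 0 of 9 transporters passed and 0% of all tested genes did in the edgeR test, and 945 genes (7.05%), with ABCG2 as 1 of 9 transporters, had an unadjusted p under 0.05, whereas DESeq2 called 60 genes and 0 transporters. For ABCC3 the difference of compound 4 minus 6 was 0.01 (interval -0.26 to 0.28), and for ABCG2 it was 0.38 (interval 0.02 to 0.74, adjusted p = 0.66).

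**Figure D3:**
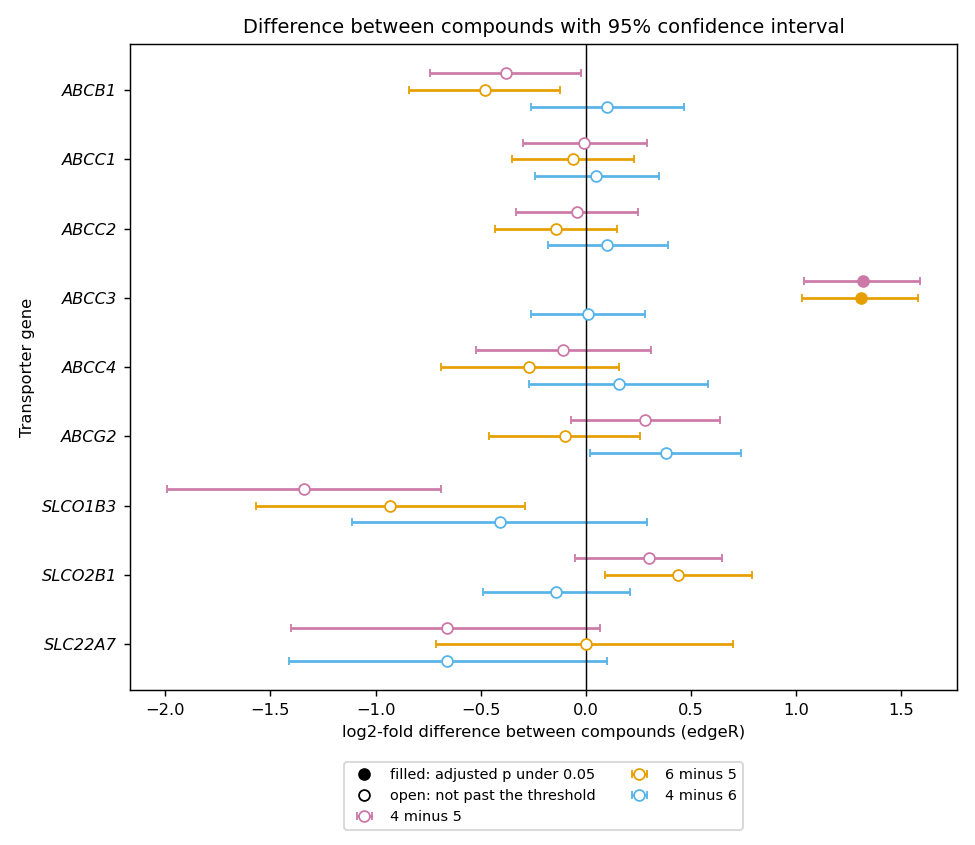
Log2-fold difference between pairs of compounds for each transporter, with points for the edgeR estimate, bars for the 95% confidence interval and filled points for an adjusted p under 0.05. The filled points are ABCC3 in the compound 4 minus 5 and 6 minus 5 comparisons, at 1.32 and 1.31.

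The shares of the pump total also differed between groups, which was not tested. Summed CPM of the 6 pumps was 960 and 889 with DMSO and 1429 to 1744 with the compounds. ABCC2 made up 60.9% and 63.5% of that sum with DMSO and 67.3% to 70.8% with the compounds. ABCC3 made up 6.56% and 5.77% with DMSO, 8.97% and 8.05% with compound 4, 9.33% and 8.74% with compound 6 and 3.28% and 3.62% with compound 5.

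ABCB1 (P-glycoprotein, chromosome 7, 87503633 to 87713323), the canalicular pump for many lipophilic and cationic drugs, was read at 113 and 104 CPM with DMSO, 107 and 140 with compound 4, 180 and 141 with compound 5 and 106 and 123 with compound 6. Only with compound 5 did both libraries lie above both DMSO libraries. The log2-fold change there was 0.56 (SE 0.16, interval 0.20 to 0.92), which missed the threshold at an adjusted p of 0.061 and lay between 0.00064 and 0.31 over the alternatives. It was 0.18 (adjusted p = 0.51) with compound 4 and 0.08 (adjusted p = 0.83) with compound 6. ABCB1 was lower with compound 6 than with compound 5 by a log2 difference of -0.48 (interval -0.84 to -0.12, adjusted p = 0.16), short of the threshold.

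ABCG2 (BCRP, chromosome 4, 88090264 to 88231322), a canalicular half-transporter for sulfate conjugates and drugs, was read at 38.6 and 35.0 CPM with DMSO, 56.4 and 48.8 with compound 4, 50.1 and 36.5 with compound 5 and 40.5 and 40.1 with compound 6. The libraries of compounds 4 and 6 lay above DMSO, and compound 5 overlapped DMSO. With compound 4 the log2-fold change was 0.51 (SE 0.16, interval 0.15 to 0.88, adjusted p = 0.075, and 0.038 with the day as a block, in a range of 0.015 to 0.35). With compounds 5 and 6 it was 0.23 (adjusted p = 0.37) and 0.13 (adjusted p = 0.71).

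ABCC1 (MRP1, chromosome 16, 15949577 to 16143074), a pump for glutathione conjugates that healthy hepatocytes make little of, was read at 123 and 97.2 CPM with DMSO, 143 and 161 with compound 4, 162 and 143 with compound 5 and 145 and 148 with compound 6. All treated libraries lay above DMSO. The log2-fold change was 0.47 with compound 4 (SE 0.13, adjusted p = 0.055, and 0.046 with the day as a block), 0.47 with compound 5 (SE 0.13, adjusted p = 0.055, and 0.049 with the block) and 0.42 with compound 6 (SE 0.13, adjusted p = 0.15). Over the alternatives the adjusted p lay between 0.0081 and 0.36 with compound 4 and between 0.0055 and 0.31 with compound 5, so that the call of ABCC1 depended on the setting.

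ABCC4 (MRP4, chromosome 13, 95019829 to 95301475), a basolateral pump for cyclic nucleotides and bile acids, was read at 38 and 36.8 CPM with DMSO, 36.5 and 57.2 with compound 4, 54.7 and 46.7 with compound 5 and 42.2 and 42.0 with compound 6. The compound 4 libraries lay on both sides of DMSO. The log2-fold change was 0.33 (interval -0.10 to 0.75, adjusted p = 0.30), 0.43 (0.01 to 0.86, adjusted p = 0.17) and 0.17 (-0.26 to 0.60, adjusted p = 0.68) with compounds 4, 5 and 6.

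**Figure D4:**
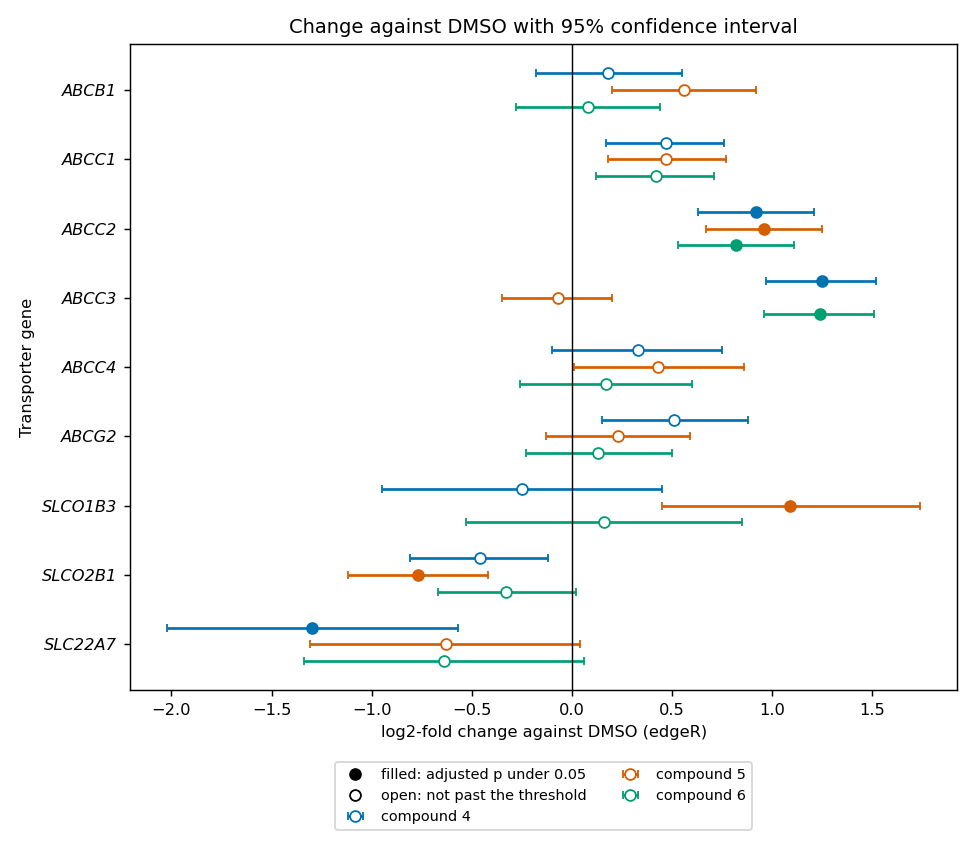
Log2-fold change of each transporter against DMSO, with points for the edgeR estimate of each compound, bars for the 95% confidence interval and filled points for an adjusted p under 0.05. ABCC2 is filled for all 3 compounds and ABCC3 for compounds 4 and 6, and the filled carriers are SLC22A7 with compound 4 and SLCO1B3 and SLCO2B1 with compound 5.

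SLCO2B1 (OATP2B1, chromosome 11, 75100563 to 75206549), a carrier for sulfated steroids and several drugs, fell with compound 5. Its level was 56.1 and 51.9 CPM with DMSO, 42.7 and 35.7 with compound 4, 29.6 and 33.7 with compound 5 and 48.5 and 37.6 with compound 6. All 6 treated libraries lay below both DMSO libraries. The log2-fold change was -0.77 with compound 5 (SE 0.16, interval -1.12 to -0.42, adjusted p = 0.021), -0.46 with compound 4 (SE 0.16, interval -0.81 to -0.12, adjusted p = 0.090) and -0.33 with compound 6 (SE 0.16, interval -0.67 to 0.02, adjusted p = 0.29). The compound 5 call was lost without DMSO replicate 1 (0.11) or 2 (0.12) or compound 5 replicate 1 (0.13), in a range of 4.1e-05 to 0.13. Within day 1 and day 2 the log2 ratios with compound 5 were -0.91 and -0.61.

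SLC22A7 (OAT2, chromosome 6, 43295694 to 43305538), a basolateral carrier for organic anions and nucleosides, fell with compound 4. It was read weakly, at 4.10 and 6.36 CPM with DMSO, 2.06 and 2.21 with compound 4, 2.72 and 3.98 with compound 5 and 3.63 and 3.13 with compound 6, from 22 to 76 counts per library. All treated libraries lay below both DMSO libraries. With compound 4 the log2-fold change was -1.30 (SE 0.32, interval -2.02 to -0.57, adjusted p = 0.037). The call held in 8 of 14 alternatives and was lost with DESeq2 (0.069) and without DMSO replicate 2 (0.29), compound 4 replicate 1 (0.11) or 2 (0.16), or compound 6 replicate 1 (0.053) or 2 (0.053), with adjusted p from 0.0011 to 0.29 over the alternatives. Within day 1 and day 2 the log2 ratios with compound 4 were -0.84 and -1.34. With compounds 5 and 6 the log2-fold change was -0.63 (adjusted p = 0.20) and -0.64 (adjusted p = 0.31). SLC22A7 shares 148 exon bases with CRIP3 on the opposite strand, which had 65 counts in all libraries together.

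SLCO1B3 (OATP1B3, chromosome 12, 20810702 to 20916911), a liver carrier for bile acids, bilirubin conjugates and drugs, rose with compound 5. It was read at 2.97 and 5.44 CPM with DMSO, 3.85 and 3.35 with compound 4, 7.82 and 10.3 with compound 5 and 4.41 and 5.12 with compound 6, from 29 to 181 counts per library. Only the compound 5 libraries lay above all others. The log2-fold change with compound 5 was 1.09 (SE 0.29, interval 0.45 to 1.74, adjusted p = 0.048), and the call held in 4 of 14 alternatives. It was lost with DESeq2 (0.062), with only the 4 samples compared (0.081) and without any 1 of the 8 libraries, at adjusted p from 0.055 without compound 4 replicate 2 to 0.21 without DMSO replicate 1, and the smallest adjusted p over the alternatives was 0.00057. Within day 1 and day 2 the log2 ratios were 1.26 and 0.86. SLCO1B3 was lower with compound 4 than with compound 5 by a log2 difference of -1.34 (interval -1.99 to -0.69, adjusted p = 0.096), short of the threshold. A readthrough gene shares 1930 exon bases with it on the same strand and had 7 counts in all.

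The summed level of the 3 carriers was 63.1 and 63.7 CPM with DMSO and 40.1 to 56.5 CPM with the compounds. The summed level of the hepatocyte markers given above was also lower in the treated libraries. The median log2-fold change over the 9 markers was -0.38, -0.21 and -0.36 with compounds 4, 5 and 6. Over all tested genes it was 0.01, 0.00 and 0.02. Most marker estimates lay below 0 with each compound, but not all did. With compound 4, 4 of 9 (APOA1, AFP, TF and APOB) fell and the other 5 did not pass, with TTR at a log2-fold change of 0.25 and HNF4A at 0.09. With compound 5 FGB rose by 0.53 (adjusted p = 0.030), from 172 and 200 CPM to 254 and 285 CPM. The FGB call was lost without any single DMSO or compound 5 library or without compound 6 replicate 1. With compound 6, 0 of 9 passed in the main edgeR fit, without the day as a block. Without DMSO replicate 1, DMSO replicate 2 or compound 4 replicate 2, 0 hepatocyte markers passed with compound 4. With the day as a block, AFP passed with compound 5 (adjusted p = 0.046) and APOA1 (0.044) and TF (0.030) with compound 6, all lower. Their part in the carrier levels was not tested.

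**Figure D5:**
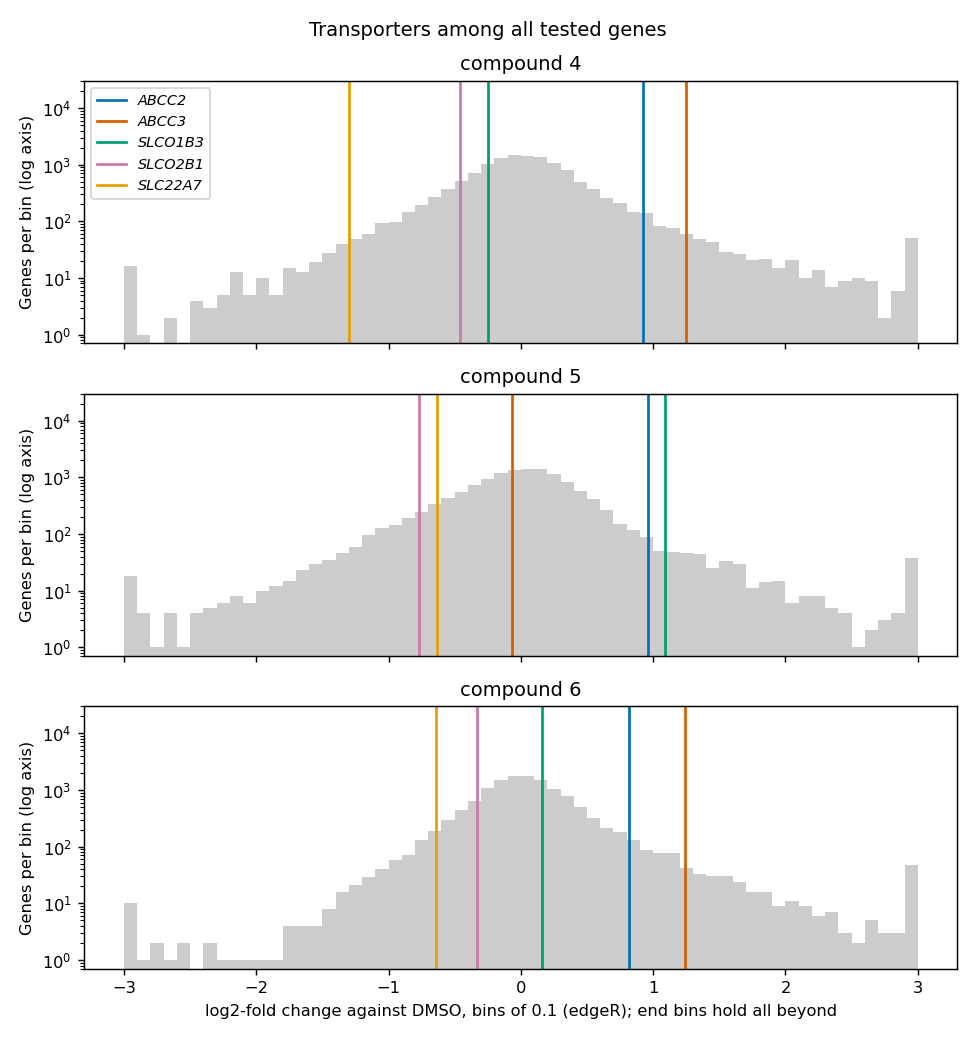
Distribution of log2-fold changes over all 13400 tested genes for each compound against DMSO, in bins of log2-fold change, with log-scaled gene counts per bin and lines at ABCC2, ABCC3, SLCO1B3, SLCO2B1 and SLC22A7. ABCC3 lies at percentile 97.2 with compound 4, 42.0 with compound 5 and 97.9 with compound 6, and ABCC2 at 95, 96.8 and 95.2.

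Of 10 other listed pumps of the ABC family, 5 were tested, and the only call was ABCC6, which fell by 0.95 on the log2 scale with compound 5 (adjusted p = 0.019). Its level was 44.2 and 43.3 CPM with DMSO and 20 and 25.2 with compound 5. The call was lost without DMSO replicate 1, DMSO replicate 2 or compound 5 replicate 1.

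Among 32 other organic ion carriers, 15 were tested. For this and the other gene lists, the shares of all tested genes past the threshold were 9.51%, 8.3% and 0.575% with compounds 4, 5 and 6. With compound 4, 3 rose (on the log2 scale, SLCO4A1 by 0.68, SLC22A18 by 0.71, SLC51B by 1.29) and 2 fell (SLC29A1 by a log2-fold change of -0.67, SLCO4C1 of -2.46). With compound 5, 3 rose (SLCO4A1 by 0.71, SLC51A by 2.58, SLC51B by 2.44) and SLCO4C1 fell by a change of -2.26. SLC51A and SLC51B together encode the basolateral bile acid exporter, and SLC51A was read at 7.69 and 8.12 CPM with DMSO and 45.2 and 49.2 with compound 5. With compound 6 SLC22A18 rose by 1.10. The calls of these carriers with compound 4 were lost without DMSO replicate 2 or compound 4 replicate 2. The call with compound 6 was lost without any single DMSO or compound 6 library. With compound 5, fewer passed without either DMSO library or compound 5 replicate 1. SLC22A15 was at 0 and 0.0837 CPM with DMSO and at 0.375 to 4.26 CPM in the treated libraries and passed in no comparison.

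Partners that anchor or traffic transporters at the membrane had 10 of 12 members tested. With each compound, 0 passed the threshold in the main edgeR fit, without the day as a block. The lowest was PDZK1, a scaffold for carriers, at log2-fold changes of -0.60, -0.67 and -0.68 (adjusted p = 0.070, 0.053 and 0.11). With the day as a block NHERF2 passed with compound 4 (adjusted p = 0.035).

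Of 19 receptors and factors that control transporter genes, 17 were tested. NR0B2, a corepressor induced by the bile acid receptor, rose by a log2-fold change of 0.80 with compound 4 (adjusted p = 0.0043) and 1.12 with compound 5 (0.0019). KEAP1, which holds NRF2 in check, rose by 0.39 and 0.41. NR1H4, the bile acid receptor itself, fell with compound 4 by 0.74, and CEBPB (1.03) and AHR (0.73) rose with compound 5. With compound 6, 0 of 17 passed in the main edgeR fit, without the day as a block. With the block, 5 passed with compound 4, adding CEBPB (adjusted p = 0.018) and AHR (0.041), and 5 with compound 5, adding NFE2L2, which encodes NRF2 (0.048). The calls with compound 4 were lost without DMSO replicate 2, and fewer passed without DMSO replicate 1 or compound 4 replicate 2. With compound 5, fewer passed without either DMSO library or compound 5 replicate 1.

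Of 14 tested enzymes known as NRF2 targets, 10 rose with compound 4, 8 rose with compound 5 and 2 rose with compound 6 (SLC7A11 by 1.67 and AKR1B10 by 0.70, both at an adjusted p of 0.048). With the block, SLC7A11 was lost with compound 6 (0.058). These counts leaned on single libraries. With compound 4, 4 rose when DMSO replicate 1 was left out, 1 when DMSO replicate 2 was and 3 when compound 4 replicate 2 was. With compound 5, 3 rose when DMSO replicate 1 was left out, 0 when DMSO replicate 2 was and 2 when compound 5 replicate 1 was. With compound 6, 0 rose when either DMSO library or compound 6 replicate 2 was left out, 1 when compound 6 replicate 1 was, 3 when compound 4 replicate 2 was and 6 when either compound 5 library was. The median over the list was 0.92, 0.94 and 0.48, beside 0.01, 0.00 and 0.02 over all tested genes. Among 8 tested enzymes known as PXR and CAR targets, CYP3A5 (2.27) and CYP2B6 (1.48) rose and GSTA1 (-1.67, adjusted p = 0.050) fell with compound 4. CYP2B6 (1.43) and POR (0.49) rose with compound 5, and 0 passed with compound 6 in the main edgeR fit, without the day as a block. With the block, CYP3A5 (0.74, adjusted p = 0.048) and GSTA1 (-1.37, adjusted p = 0.042) also passed with compound 5. The calls with compound 4 were lost without DMSO replicate 2, and those with compound 5 without either DMSO library or compound 5 replicate 1. Among 4 tested AHR targets, CYP1A1, which oxidizes aromatic hydrocarbons, rose by 3.60, 0.90 and 1.87 with compounds 4, 5 and 6, and its call with compound 5 was lost with the block (0.051). With the block, ALDH3A1 passed with compound 4 (1.23, adjusted p = 0.048) and NFE2L2, which is also in this list, with compound 5. The calls of the AHR list with compounds 5 and 6 were lost when any of several single libraries was left out, either DMSO library among them. Calls with compound 4 remained.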

How the data were processed

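mRNA libraries of the 8 samples were prepared with a directional kit and sequenced paired-end. Per the labels and the study's methods, the authors checked reads with FastQC (0.12.0), quantified transcripts with Salmon (1.5.0) on GRCh38, summed them to genes and used DESeq2 (1.38.3). The deposited table holds whole-number counts per gene, and the strand setting of the counting is not given in the sources used here. The column names mark DMSO replicate 1 and compound 4 replicate 1 as merged, without saying what was merged. The counts were tested with edgeR (4.0.16) in R (4.3.3), with TMM normalization, filterByExpr at a minimum count of 10, a quasi-likelihood fit of all 8 libraries (4 residual degrees of freedom) and Benjamini-Hochberg adjustment over 13400 genes. Gene positions come from GENCODE on GRCh38, and symbols matched 60089 of 60230 identifiers. Replicate numbers are the day in the labels, which pairs the libraries. Deviations of same-day libraries from their group means correlated at -0.1633 to 0.3023 over the pairs of groups. Libraries of a group differed by more than sampling noise, at a mean chi-square of 8.421 to 19.66 per gene. Alternatives were DESeq2 (1.42.0), the day as a block, only the 4 samples compared, DESeq2 size factors, other filters and leaving out each library. Named genes were all 9 transporters, the called and extreme members of each list, and, for up to 4 called transporters, the 3 genes of highest Pearson correlation with a mean of at least 1 CPM. The members and lists were chosen with earlier results of these data known. Some genes that this rule names are not reported here.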

Additional observations from a re-analysis of the deposited data

Results flagged for a closer look

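ABCC3 stood out because its response differed between compounds in a direct test. The log2 difference of compound 4 minus compound 5 was 1.32, and that of compound 6 minus compound 5 was 1.31, with both libraries of compounds 4 and 6 (130 to 140 CPM) above both of compound 5 (52.0 to 56.6 CPM). Within day 1 the log2 ratios were 1.20 and 1.23, and within day 2 they were 1.43 and 1.37.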

How the results depend on the processing

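Of 756 values of a transporter under an alternative, 671 kept direction and side of the threshold, 29 lost the call, 28 gained one and 28 turned sign, 7 of these against DMSO and 21 between compounds. With no filter on low counts, 6 transporters passed with compound 4, 6 with compound 5, 2 between compounds 4 and 5 and 3 between 6 and 5, and all genes past the threshold numbered 2383, 2431, 1355 with compounds 4, 5 and 6, 750 for 4 against 5, 259 for 4 against 6 and 990 for 6 against 5. With the replicate block, 5 transporters passed with compound 4, and all genes numbered 128 (4 against 5), 1 (4 against 6) and 269 (6 against 5). The block changed the transporter calls named in the report and no other. DESeq2 gave 518 genes with compound 6, and 194, 60 and 370 for 4 against 5, 4 against 6 and 6 against 5. At 10 counts in every sample there were 198 genes with compound 6, 65 for 4 against 5 and 5 for 4 against 6. DESeq2 size factors gave 47 with compound 6, and the 4 samples alone gave 956 with compound 6, 10 for 4 against 5 and 50 for 6 against 5. Leaving out 1 library gave 1 to 5, 0 to 4 and 0 to 2 transporters with compounds 4, 5 and 6, 1 for 4 against 5, 0 for 4 against 6 and 0 to 1 for 6 against 5, and 43 to 1701, 46 to 1829, 2 to 452, 9 to 25, 0 to 10 and 0 to 105 genes. With 10 counts in every sample ABCC1 was 0.01 for 4 against 5 and SLC22A7 0.00 for 6 against 5, where the replicate block gave 0.03. The others turned sign when 1 library was left out, and their ranges follow. For compound 4 against DMSO these were ABCB1 -0.03 to 0.35, ABCC4 -0.04 to 0.60, SLCO1B3 -0.61 to 0.27. For compound 5 against DMSO these were ABCC3 -0.22 to 0.07, ABCG2 -0.03 to 0.45. For compound 6 against DMSO these were ABCB1 -0.03 to 0.17, SLCO1B3 -0.20 to 0.68. For compound 4 against compound 5 these were ABCC1 -0.10 to 0.09, ABCC2 -0.19 to 0.11, ABCC4 -0.47 to 0.17. For compound 4 against compound 6 these were ABCB1 -0.10 to 0.28, ABCC1 -0.04 to 0.13, ABCC2 -0.05 to 0.24, ABCC3 -0.05 to 0.06, ABCC4 -0.21 to 0.44, SLCO2B1 -0.31 to 0.07. For compound 6 against compound 5 these were ABCC1 -0.14 to 0.03, ABCG2 -0.32 to 0.15, SLC22A7 -0.24 to 0.31. The cause was not tested. With 2 libraries per group, leaving out 1 leaves a lone library that is assumed to vary like the others. SLCO1B3 and SLC22A7, at 22 to 181 counts per library, have the widest intervals.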

Other observations

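Over the 8 libraries, the log2 CPM profiles of some genes lay close to those of called transporters among 12728 genes. These correlations describe 4 groups of 2 libraries that share treatment, and no p is attached. Closest to ABCC3 were SQOR (r = 0.98), C18orf32 (0.972) and MAGI2-AS3 (0.972), and 114 genes were above 0.9. SQOR was read at 10.6 and 8.79 CPM with DMSO, 17.2 and 20.4 with compound 4, 9.71 and 10.5 with compound 5 and 17.1 and 19.9 with compound 6. Among the closest to ABCC2 were RBM24 (0.994) and ADM2 (0.992), with 499 genes above 0.9. Closest to SLCO2B1 were LMO7 (0.993), NUP37 (0.991) and TUSC8 (0.99), and closest to SLC22A7 were TTI1 (0.992), HMGB2 (0.983) and CIP2A (0.982). Among the transporters themselves, r was 0.94 for ABCC1 with ABCC2, 0.86 for ABCB1 with ABCC4, -0.88 for ABCB1 with SLCO2B1 and -0.91 for ABCG2 with SLC22A7.

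Markers of other cell types were read at different levels. The cholangiocyte markers summed to 427 to 503 CPM, with KRT19 at 112 to 215 CPM. The stellate cell list summed to at most 34.3 CPM and the immune list to at most 39.3 CPM. Of 5 stellate cell markers 2 were tested (PDGFRB and ACTA2), and of 5 immune markers 1 (CD68). With compound 4, PDGFRB rose by 1.79 (edgeR adjusted p = 0.0063), and ACTA2 was at -0.43 (0.25). With compound 5, ACTA2 fell by 1.00 (0.032), and PDGFRB was at 0.43 (0.33). CD68 rose by 0.80 with compound 4 (edgeR adjusted p = 0.016). These calls leaned on single libraries. The PDGFRB call was lost without DMSO replicate 2 or compound 4 replicate 2. That of ACTA2 was lost without either DMSO library or compound 5 replicate 1. That of CD68 was lost without DMSO replicate 2 or either compound 4 library.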
